A study of Homo sapiens with 6 samples.

Results

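The IFITM proteins and tetherin are antiviral proteins that act at membranes, and the 4 genes described here, IFITM1, IFITM2, IFITM3 and BST2 (the gene of tetherin), are 4 of the 29889 genes with a count in the deposited tables. Their rows were taken by symbol, and the 4 genes and the lists below were chosen with earlier results of these data known. All 4 passed the filter on low counts that left 15847 genes for testing. RNA-seq compared A549 cells, a human lung adenocarcinoma line, transfected with the plasmid pIRES-hrGFP-1a carrying CELF6 (CELF6-OE, 3 libraries) with A549 cells given the empty plasmid (Control, 3 libraries). CELF6 is an RNA-binding protein of the CUGBP Elav-like family, and the question was which genes change when it is supplied in excess. Both groups went through lipid-mediated transfection and were harvested 48 h later, so every library came from transfected cells and no untransfected cells were compared.

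The IFITM proteins are small membrane proteins of the dispanin family that hinder the fusion of enveloped viruses with cell membranes. IFITM1 lies mainly at the plasma membrane, while IFITM2 and IFITM3 lie mainly in endosomes, to which an endocytic sorting signal near the amino terminus directs them. Tetherin is anchored in the membrane at both ends and holds newly formed enveloped virions at the surface of the cell that made them. Interferons induce all 4 genes: type I and type III interferons act through a complex of STAT proteins with IRF9 that binds the interferon-stimulated response element (ISRE), and type II interferon acts through a STAT dimer that binds the gamma-activated sequence (GAS).

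The 3 IFITM genes are neighbours on chromosome 11 and BST2 lies on chromosome 19. In GRCh38, with GENCODE v44, IFITM2 (ENSG00000185201) spans 303655 to 309397 and IFITM1 (ENSG00000185885) spans 310041 to 315272, both on the plus strand. IFITM3 (ENSG00000142089) follows at 319676 to 329475 on the minus strand. The canonical transcript of each IFITM gene has 2 exons, and that of BST2 (ENSG00000130303, minus strand, 17402939 to 17405630) has 5. The stretch around the start of each gene is shown because the 4 genes moved together and because interferon elements of this kind sit near such starts. Promoter windows from RefSeq on GRCh38.p14 were found for IFITM1, IFITM3 and BST2. Each line gives 150 bases before the start and the first 10 bases of the gene, 5′ to 3′ on the gene's own strand, and capitals mark matches to the ISRE core GAAANNGAA.
IFITM1, chr11:313890-314049, plus strand: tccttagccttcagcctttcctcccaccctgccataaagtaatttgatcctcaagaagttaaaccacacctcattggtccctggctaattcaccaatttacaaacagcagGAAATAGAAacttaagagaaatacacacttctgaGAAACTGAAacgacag
IFITM3, chr11:320851-321010, minus strand: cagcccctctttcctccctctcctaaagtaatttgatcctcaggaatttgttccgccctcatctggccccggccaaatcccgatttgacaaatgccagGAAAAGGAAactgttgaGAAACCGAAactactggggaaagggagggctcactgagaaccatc
BST2, chr19:17405621-17405780, minus strand: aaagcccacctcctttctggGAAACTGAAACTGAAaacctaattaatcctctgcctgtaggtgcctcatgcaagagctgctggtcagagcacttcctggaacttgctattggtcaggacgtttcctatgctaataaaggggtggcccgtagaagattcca

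Each of these 3 windows held 2 matches to the ISRE core on the gene's own strand. Counting the first base of the gene as 1, the matches ran from -40 to -32 and from -6 to 3 in IFITM1, and from -52 to -44 and -35 to -27 in IFITM3. In BST2 they lay farther out, from -130 to -122 and from -124 to -116, and overlapped each other, which is why the capitals there form a single run. Both strands of all 35116 RefSeq windows of 300 bases (250 before the start and 50 from it on) were searched in the same way. The ISRE core was found in 8.11% of them, and 0.701% held 2 or more matches. The GAS core TTCNNNGAA, which reads the same on both strands, was found in 7.66% of windows. IFITM1 held 1 GAS match, from -12 to -4, which overlaps its second ISRE match. BST2 held 2, from -136 to -128, overlapping its first ISRE match, and from -58 to -50. IFITM3 held none, and none of the 3 windows held TATAAA, which was present in 11.5% of all windows. Over the 250 bases before the start, IFITM1 and IFITM3 were 69.3% identical in a pairwise alignment, against 60.0% for IFITM1 with BST2 and 58.1% for IFITM3 with BST2. These shares count aligned bases only. The share that unrelated windows reach was not computed, so they do not show that the BST2 window is like the others. A match of letters is a description of the window and not evidence that a factor was bound.

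Counts on genes summed to between 33748328 and 35413404 in a CELF6-OE library and between 36422617 and 37920700 in a Control library, and no pair of replicates was close enough to be a single library deposited again. Levels are given as FPKM, in which the fragments on a gene are divided by the length of its transcript and by the size of the library. The FPKM of CELF6 itself was 270.1 in replicate 1, 295 in replicate 2 and 172 in replicate 3 of CELF6-OE, and every Control library had 0 counts. With the limit that such a 0 leaves taken as 3 counts, at most 0.0414 on the FPKM scale, its level was at least 5937-fold higher with the CELF6 plasmid, and replicate 3 carried 61.0% of the mean of replicates 1 and 2. The FPKM of 8 A549 epithelial markers summed to between 8062 and 9263 with the CELF6 plasmid and between 10007 and 10157 without it. Of the 8, 7 had a log2 fold change below 0, where the median over all genes tested was 0.01. The cell adhesion gene CDH1 was called lower (-1.62), as were 5.91% of all genes tested. The keratin genes KRT8 (-0.47), KRT18 (-0.36) and KRT19 (-0.22) fell short of the fold change for a call. Their 3 CELF6-OE libraries lay below the 3 Control libraries in FPKM, as in 17.9% of all genes tested. Markers of other cells were low: 9 leukocyte genes summed to between 4.16 and 5.56 in CELF6-OE and between 3.96 and 4.54 in Control, with PTPRC, CD3E, MS4A1, CD163 and NKG7 at 3 counts or fewer in every library, and 7 fibroblast and endothelial genes summed to at most 0.5. The plasmacytoid dendritic and plasma cell list summed to 57.2 to 59.6 and 61.9 to 65.0, nearly all of it SDC1, which epithelial cells also express, with LILRA4 and CLEC4C at 3 counts or fewer. Of these further lists, ITGAM (log2 fold change -0.73) was called lower among 3 leukocyte genes tested and PECAM1 (-1.86) among 2 fibroblast and endothelial genes tested. PECAM1 had mean counts of only 3.67 in CELF6-OE and 14.3 in Control. Lists this small cannot be set apart from the 5.91% called lower over all genes tested.

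All 4 genes were strongly expressed in Control and lower in every CELF6-OE library. A gene was called when edgeR's quasi-likelihood test gave a p under 0.01 and the fold change was at least 1.5, the rule of the study's methods. All 4 of the 4 genes were called lower, where 5.91% of the genes tested were called lower and 1.36% higher. With an adjusted p under 0.05 in place of the p, the background was 5.82% and again all 4 were called. The FPKM of all 3 CELF6-OE libraries lay below that of all 3 Control libraries for each gene, a separation seen in 17.9% of the genes tested. The median log2 fold change of the 4 genes was -2.53, beside 0.01 over all genes tested. In RNA from whole cultures, less transcript in each cell and transcript lost from a share of the cells cannot be told apart.

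IFITM1, the family member of the plasma membrane, had FPKM 51.4, 44.2 and 106 in replicates 1 to 3 of CELF6-OE and 466, 453 and 427 in those of Control. The means were 67.3 ± 34.0 (SD, n = 3) and 449 ± 19.7 (SD, n = 3), and the highest CELF6-OE library stayed far under the lowest Control library. The underlying counts lay between 1705 and 3911 in CELF6-OE and between 17552 and 18572 in Control, so counting error is small beside the spread between replicates. The fitted log2 fold change was -2.77 (SE 0.26), a 6.80-fold lower level, with a Benjamini-Hochberg adjusted p of 5.03e-05 (edgeR's quasi-likelihood test). Only 54 of the 15847 genes tested had a log2 fold change at or below that of IFITM1, itself included.

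IFITM2, one of the endosomal members, had FPKM 120.4, 114 and 178 in CELF6-OE and 440.1, 448 and 437 in Control. Its means were 137 ± 35.3 and 442 ± 5.94 (SD, n = 3 each), which made it the gene of the 4 with the highest level left in CELF6-OE. Its log2 fold change of -1.71 (SE 0.14) was the smallest drop of the 4, a 3.28-fold lower level (adjusted p = 2.44e-05, edgeR's quasi-likelihood test), and 180 genes tested had a log2 fold change at or below it.

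IFITM3, the endosomal member best known for restricting influenza viruses, had FPKM 81.4, 81.1 and 155 in CELF6-OE and 480.3, 510.0 and 536 in Control. The means were 106 ± 42.9 and 509 ± 27.6 (SD, n = 3 each). Its log2 fold change was -2.29 (SE 0.21), a 4.90-fold lower level (adjusted p = 4.63e-05, edgeR's quasi-likelihood test), at or below which 102 genes tested lay.

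BST2 stood at a lower level than the IFITM genes in every library, with FPKM 13.6, 13.8 and 30.5 in CELF6-OE and 134, 134 and 129 in Control. The means were 19.3 ± 9.71 and 132 ± 2.63 (SD, n = 3 each), over counts of 502 to 1098 and 5173 to 5365. The log2 fold change of BST2 was -2.81 (SE 0.25), a 7.0-fold lower level (adjusted p = 3.81e-05, edgeR's quasi-likelihood test), and 51 genes tested were at or below it. An exact two-sided permutation test of FPKM gave p = 0.1 for each of the 4 genes, the smallest value that 3 libraries against 3 allow. Each of the 4 calls was made in 15 of 15 alternative fits, with log2 fold changes of -3.26 to -2.54 for IFITM1, -1.95 to -1.59 for IFITM2, -2.68 to -2.13 for IFITM3 and -3.31 to -2.61 for BST2.

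**Figure D1:**
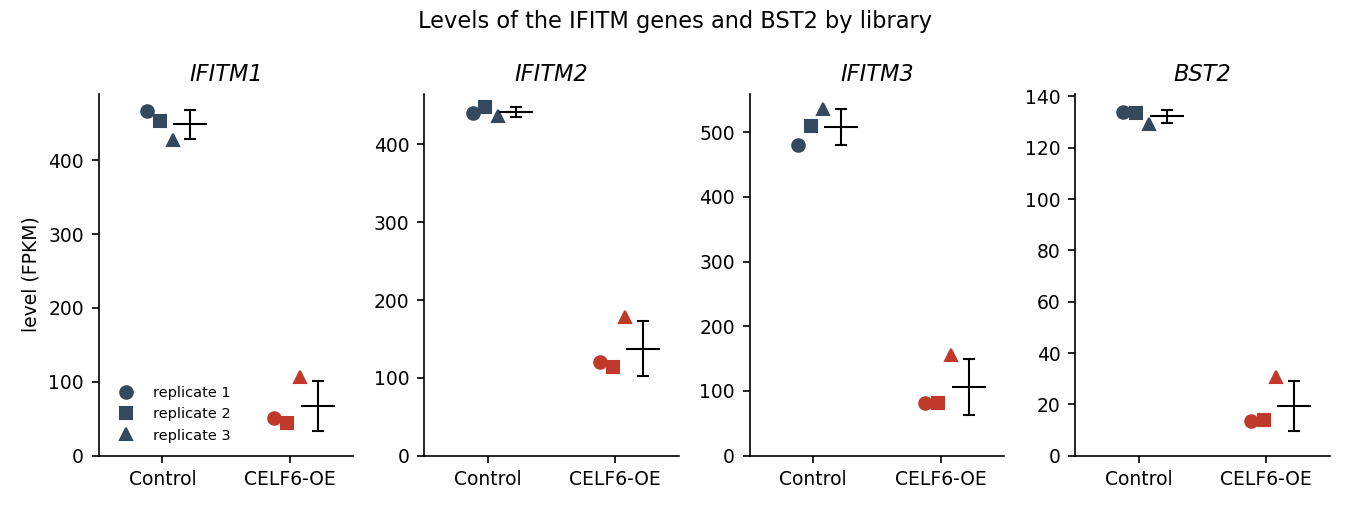
Level of IFITM1, IFITM2, IFITM3 and BST2 (y axis, FPKM, a separate scale for each gene) in the 3 Control and 3 CELF6-OE libraries (x axis), where each symbol is a library (circle, square and triangle for replicates 1, 2 and 3) and the bars show the mean ± SD. For each gene the highest CELF6-OE library was under the lowest Control library, and CELF6-OE replicate 3 was the highest of its group, at 106 for IFITM1 and 30.5 for BST2.

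**Figure D2:**
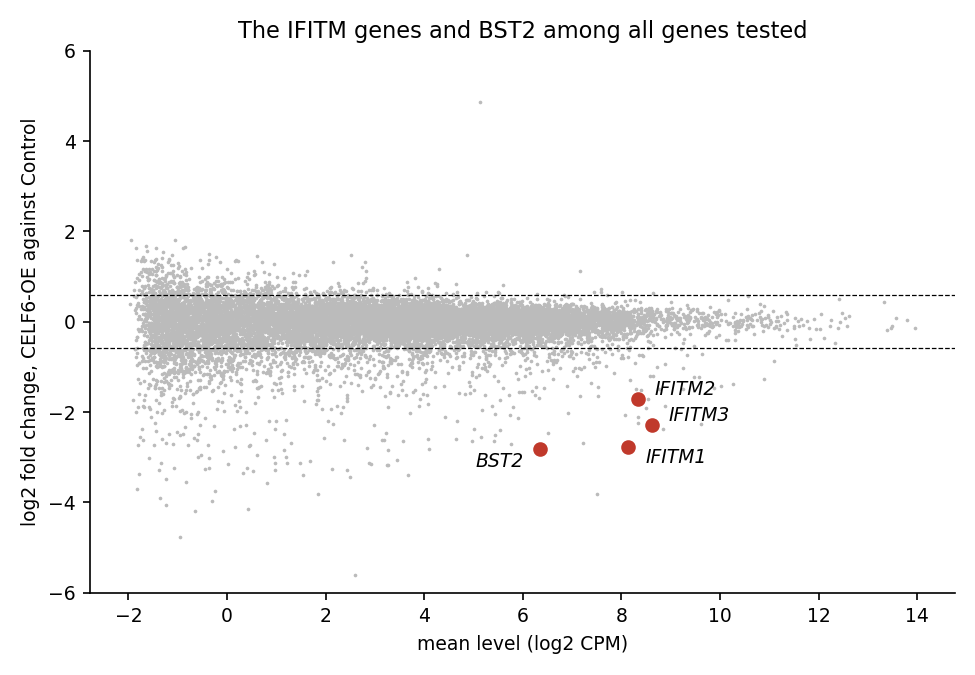
Log2 fold change of CELF6-OE against Control (y axis) against the mean level on the log2 scale of counts scaled to library size (x axis, log2 CPM) for the genes tested, with the 4 genes in red and dashed lines at a fold change of 1.5 either way. CELF6 is not drawn. With 0 counts in Control its fitted value of 17.08 depends on the prior count, and it was 13.08 to 17.30 over the alternatives. IFITM2, IFITM3, IFITM1 and BST2 stood at -1.71, -2.29, -2.77 and -2.81, below the bulk of genes around 0.01.

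In CELF6-OE the 3 libraries were not alike for these genes. Replicate 3 lay above replicates 1 and 2 for all 4 genes, at 2.23 times their mean FPKM for IFITM1, 1.52 times for IFITM2, 1.91 times for IFITM3 and 2.23 times for BST2. Replicate 3 was also the CELF6-OE library with the least CELF6, at FPKM 172 beside 270.1 and 295, and whether these values are connected was not tested. Set against the Control mean in FPKM, replicate 3 alone was 4.22-fold lower for IFITM1, 2.48-fold for IFITM2, 3.27-fold for IFITM3 and 4.34-fold for BST2. Replicates 1 and 2 without it were 9.39-fold, 3.77-fold, 6.26-fold and 9.66-fold lower. The order of the 4 drops was the same in both cases, with IFITM2 the smallest and BST2 the largest.

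The order of the levels was not the same in the 2 groups. In Control, IFITM3 was the highest of the 4, above IFITM1 in 3 of 3 libraries by 14.1 to 108 FPKM. IFITM1 and IFITM2 did not differ beyond their spread in Control, with IFITM1 minus IFITM2 between -9.05 and 26.1 FPKM and IFITM1 higher in 2 of 3 libraries. BST2 came last, 306 to 315 FPKM under IFITM2. In CELF6-OE, IFITM2 was highest, above IFITM3 by 22.5 to 39.0 FPKM in 3 of 3 libraries, and IFITM3 was above IFITM1 by 30 to 49.1 FPKM in 3 of 3, although the ranges of these neighbours overlapped because replicate 3 was higher for every gene. Among the 29687 genes with an FPKM, ranked by mean level, IFITM3 went from rank 139 in Control to 596 in CELF6-OE, IFITM1 from 155 to 954, IFITM2 from 156 to 457 and BST2 from 484 to 2881. Even in CELF6-OE the 3 IFITM genes thus stayed within the top 3.21% by level.

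The IFITM transcripts summed to FPKM 1387, 1411 and 1399.5 in Control and to 253, 239 and 439.9 in CELF6-OE. Of that sum IFITM1 made up 30.5% to 33.6% in Control and 18.5% to 24.2% in CELF6-OE, so the groups did not overlap. The share of IFITM2 was 31.2% to 31.8% in Control and higher, 40.5% to 47.6%, in CELF6-OE. The share of IFITM3 overlapped, at 34.6% to 38.3% and 32.2% to 35.3%.

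Ratios within a library do not depend on how the libraries were scaled, and 6 pairs of genes were compared with p-values adjusted over the 6. The log2 ratio of IFITM1 to IFITM2 was 0.08, 0.01 and -0.03 in Control and -1.23, -1.37 and -0.74 in CELF6-OE, a difference of -1.13. The log2 ratio of IFITM2 to BST2 was 1.72, 1.75 and 1.76 in Control and 3.15, 3.04 and 2.54 in CELF6-OE, a difference of 1.17 and the widest of the 6. For IFITM1 to IFITM3, IFITM2 to IFITM3 and IFITM3 to BST2 the differences were -0.52, 0.62 and 0.55. In these 5 pairs the groups did not overlap, and each had an exact permutation p = 0.1 (0.12 adjusted), so none could pass the threshold in a design of this size. IFITM1 and BST2, which lie on different chromosomes, had the ratio that differed least: 1.80, 1.76 and 1.73 in Control and 1.92, 1.68 and 1.80 in CELF6-OE, a difference of 0.04 with overlapping groups (exact permutation p = 0.7). Leaving out each library in turn gave differences between -0.02 and 0.10, the SD of the ratio was 0.12 in CELF6-OE and 0.04 in Control, and the test does not show that the ratio was unaltered.

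**Figure D3:**
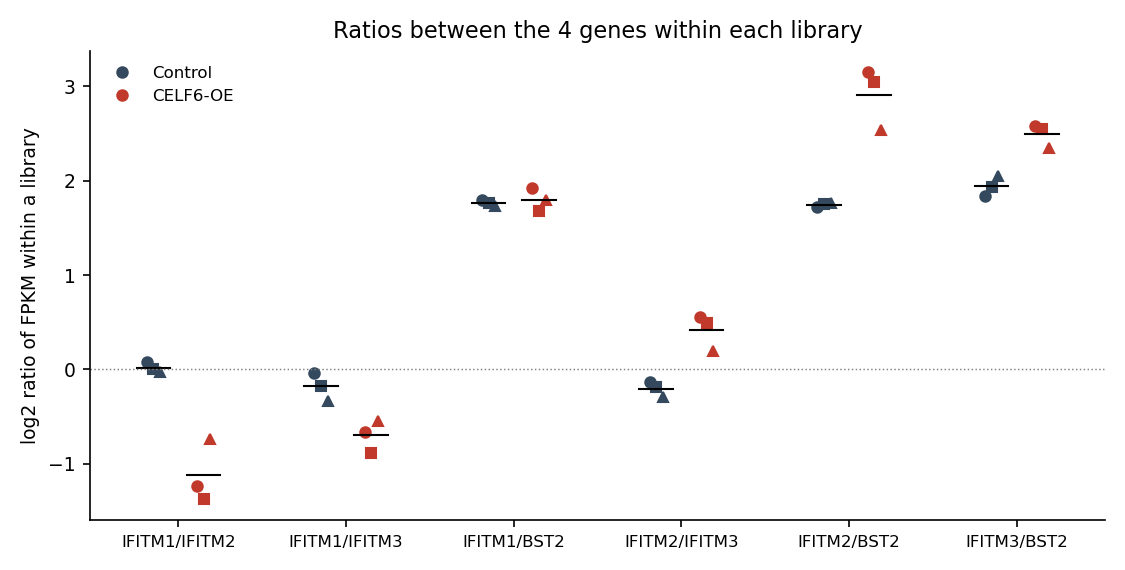
Log2 ratio of FPKM between 2 genes in the same library (y axis) for the 6 pairs of the 4 genes (x axis), Control in dark blue and CELF6-OE in red, with circle, square and triangle for replicates 1, 2 and 3 and a bar at each group mean. The groups overlapped only for IFITM1/BST2, with means of 1.76 and 1.80, and lay farthest apart for IFITM2/BST2, with means of 1.74 and 2.91.

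The IFITM genes resemble each other closely, which bears on how well their reads can be told apart. The canonical transcripts of IFITM2 and IFITM3 were 94.0% identical over 598 aligned bases, those of IFITM1 and IFITM3 81.2% and those of IFITM1 and IFITM2 78.6%. Reads were aligned with up to 4 mismatches and only those with a unique location were counted. No stretch of 150 bases, the read length in the labels, was shared exactly between IFITM genes. With up to 4 mismatches, 104 of the 462 stretches of IFITM3 (22.5%) also matched IFITM2 and 10 (2.16%) matched IFITM1, and of the 857 stretches of IFITM2, 104 (12.1%) matched IFITM3. The division of counts between IFITM2 and IFITM3 is therefore uncertain. These shares describe stretches of sequence and do not measure how many counts went to the wrong gene, which was not tested. BST2 shared no stretch exactly with another annotated gene. Of the 519 stretches of IFITM1, 214 (41.2%) also belong to a gene of GENCODE v44 annotated over the same locus. That gene is not among the genes with a count in the deposited tables. Antisense genes lie over the span of IFITM1 (RP11-326C3.7) and over IFITM3 (RP11-326C3.11). Their log2 fold changes were -0.06 (SE 0.19) and 0.28 (SE 0.29), and neither was called. RP11-326C3.7 starts before the canonical transcript of IFITM1 and runs away from it. RP11-326C3.10 and RP11-326C3.12 also start within the span of IFITM3 on the opposite strand, with too few counts to test. The strand setting of the counting is not given in the sources used here.

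The genes around the 4 were examined in the same fit. Within 100 kb of the IFITM genes 14 other genes were in the tables and 10 were tested, with log2 fold changes from -1.42 to 0.28 and a median of -0.07. Only ANO9, at mean counts of 8.67 in CELF6-OE and 24.7 in Control, was called lower (-1.42), and 0 were called higher by edgeR, DESeq2 or limma-voom, beside 5.91% lower and 1.36% higher over all genes tested. At an unadjusted p under 0.05 in edgeR's quasi-likelihood test, 3 of the 10 were lower and 0 higher, where 18.0% of all genes tested were lower and 14.8% higher. PSMD13, a proteasome subunit gene expressed at FPKM 97.8 ± 2.34 and 100.5 ± 2.72 (SD, n = 3 each), had a log2 fold change of -0.07. RIC8A, B4GALNT4, PKP3 and SIGIRR lay between -0.08 and 0.10, and the mitochondrial deacetylase gene SIRT3 was at -0.32. ATHL1, a glycosidase gene near IFITM2, was at -0.56 (SE 0.096, adjusted p = 0.00241 in edgeR's quasi-likelihood test) and fell short of the fold change that a call requires.

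Around BST2, 13 other genes were in the tables and 9 were tested, with a median of -0.21 and a range of -0.94 to 0.26. TMEM221, at mean counts of 12.7 and 25.7, was the single gene called lower (-0.94), and this call was made in only 7 of 15 alternatives. By edgeR's unadjusted p under 0.05, 3 of the 9 were lower and 0 higher, where 18.0% of all genes tested were lower and 14.8% higher. Counts as small as these, 1 of 10 and 1 of 9 called, do not set the neighbours apart from the 5.91% of all genes. The gene closest to BST2 is MVB12A, a subunit of the ESCRT-I sorting complex, which starts 92 bases away on the opposite strand. MVB12A had FPKM 14.5, 13.4 and 15.3 in CELF6-OE and 14.0, 16.4 and 16.8 in Control, overlapping groups with a log2 fold change of -0.16 (SE 0.095, adjusted p = 0.274 in edgeR's quasi-likelihood test). Both ISRE matches and both GAS matches printed or named above for BST2 also lie inside a promoter window of MVB12A. Of the 13 neighbouring genes with a RefSeq window, MVB12A was the only one that held either motif.

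**Figure D4:**
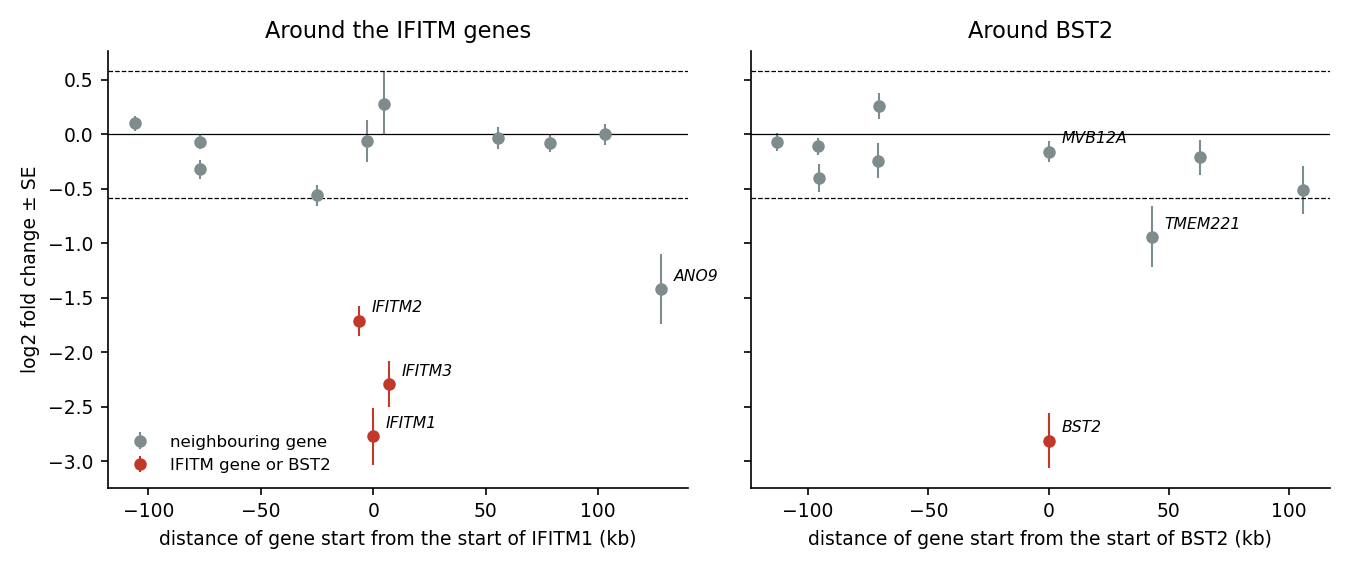
Log2 fold change ± SE (y axis) of the tested genes within 100 kb of the IFITM genes (left) and of BST2 (right) by the distance of their start from that of IFITM1 or BST2 (x axis, kb), the 4 genes in red, other genes in grey and dashed lines at a fold change of 1.5; a gene counts if any part of it lies within 100 kb. The IFITM genes and BST2 stood at -1.71 to -2.81 among neighbours with medians of -0.07 and -0.21, and MVB12A, 92 bases from BST2, was at -0.16.

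The other members of the dispanin family were scarce in A549 cells. Of 10 such genes 7 were in the tables and 4 could be tested, none with a mean FPKM over 0.85 in either group. IFITM10 was called lower at FPKM 0.547 ± 0.0971 and 0.85 ± 0.164 in CELF6-OE and Control (SD, n = 3 each), and its log2 fold change was -0.68 (SE 0.20). That call was lost without CELF6-OE replicate 2 (-0.54) or 3 (-0.71) and without Control replicate 2 (-0.71) or 3 (-0.50). PRRT1, TMEM91 and SYNDIG1, at -0.07, -0.21 and 0.46, were not called. A count of 1 in 4 cannot be set apart from the 5.91% called lower over all genes tested.

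Among 14 other proteins that act on viruses at membranes, 13 were tested, of which 7 were called lower and 1 higher, with a median log2 fold change of -1.03. This is 53.8% called lower beside 5.91% of all genes tested. LY6E, a surface protein anchored by a lipid that restricts coronaviruses, fell from FPKM 395 ± 20.2 to 143 ± 24.5 (SD, n = 3 each; log2 fold change -1.50, SE 0.11). LGALS3BP, a secreted glycoprotein, fell from 559 ± 33.2 to 213 ± 46.4 (-1.43, SE 0.13). RSAD2, the gene of viperin, fell from 9.32 ± 1.54 to 2.19 ± 0.80 (-2.11, SE 0.20), and NCOA7, which acts on endosomal acidification, from 20.4 ± 4.88 to 10.1 ± 1.46 (-1.03, SE 0.14). GBP2 and GBP5, interferon-induced GTPases that impair the processing of viral envelope proteins, fell by 1.43 and 2.72 on the log2 scale. CH25H, the enzyme that makes 25-hydroxycholesterol, fell by 2.71 at mean counts of 3.67 in CELF6-OE and 26.0 in Control. Leaving out each library in turn gave log2 fold changes of -3.96 to -2.14 for CH25H and -3.58 to -2.15 for GBP5. The lowest came without CELF6-OE replicate 3. ADAP2 was the 1 gene of this list called higher, from FPKM 0.993 ± 0.0702 to 1.64 ± 0.0924 (0.69, SE 0.13). At an unadjusted p under 0.05 in edgeR's quasi-likelihood test, 7 of the 13 were lower and 2 higher. Of all genes tested, 18.0% were lower and 14.8% higher by that rule. The 5 that were not called (SERINC3, SERINC5, ZMPSTE24, MARCH2 and MARCH8) lay between -0.20 and 0.23.

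A further list held the enzymes and partners through which IFITM proteins and tetherin are modified, sorted and degraded. All 20 were in the tables and 19 were tested, and edgeR's quasi-likelihood test called 0 lower and 0 higher at the threshold of the study, with a median log2 fold change of 0.11. DESeq2 and limma-voom also called 0 either way, and at an unadjusted p under 0.05 edgeR had 0 lower and 5 higher of the 19, where 14.8% of all genes tested were higher. With 5.91% of all genes called lower and 1.36% higher, a count of 0 in 19 is close to the background and is not a result about this list. The adaptor and coat genes of endocytosis were among them, with AP2M1 at FPKM 121 ± 2.18 in CELF6-OE and 108 ± 4.21 in Control (0.13, SE 0.065), AP2A1 at -0.12 and the clathrin heavy chain CLTC at 0.11. The ATPase VCP (0.02), the membrane linker EZR (0.17), the sorting protein HGS (0.02), the demethylase KDM1A (0.19) and the palmitoyltransferase ZDHHC3 (0.07) complete the 8 most expressed. SETD7, the methyltransferase that acts on IFITM3 and named here because of its value, had the highest log2 fold change of the list, 0.40 (SE 0.086, adjusted p = 0.0094 in edgeR's quasi-likelihood test), below the fold change that a call requires. ZDHHC20, a palmitoyltransferase likewise named after its value was seen, was at 0.35 and was called higher, at 0.59, only without Control replicate 1.

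Of 21 interferon ligands, receptors and signalling genes 20 were tested, and 10 of them (50%, beside 5.91% of all genes tested) were called lower and 0 higher, with a median of -0.57. DESeq2 and limma-voom likewise called 10 lower and 0 higher, and at an unadjusted p under 0.05 edgeR had 17 lower and 0 higher, where 18.0% of all genes tested were lower. The ligands lay lowest. IFNL1, a type III interferon, had a mean FPKM of 2.12 ± 0.189 in CELF6-OE and 18.7 ± 1.92 in Control (SD, n = 3 each), and a log2 fold change of -3.17 (SE 0.14). IFNL2 and IFNL3 were at -3.12 and -3.15, although these near-identical genes share much of their sequence and the division of their reads is uncertain. IFNB1, the type I interferon of epithelial cells, fell from FPKM 6.15 ± 0.770 to 0.737 ± 0.390 (-3.08, SE 0.26).

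The receptor chains had smaller log2 fold changes than the ligands. IFNAR1 and IFNAR2, the type I receptor, were at 0.10 and -0.28, and IFNLR1 and IL10RB, the type III receptor, at -0.38 and -0.40, none of them called. IFNAR2 and IL10RB, with adjusted p-values of 0.027 and 0.00617 (edgeR's quasi-likelihood test), fell short only of the fold change. Those of IFNAR1 and IFNLR1 were 0.43 and 0.109. IFNGR1, a chain of the type II receptor, was called lower at -0.59, right at the threshold, and in 10 of 15 alternatives. The other chain, IFNGR2, was at -0.29 (adjusted p = 0.0143, same test) and also fell short of the fold change. Downstream, the kinase genes JAK1, JAK2 and TYK2 were not called (0.08, -0.49 and -0.21), while STAT2 fell by 1.01 and the factors IRF1 and IRF7 by 1.09 and 0.88 on the log2 scale. USP18 and SOCS1, which are negative regulators of the pathway and are themselves induced by it, fell by 1.02 and 0.99. IRF9, the DNA-binding part of the complex that reads the ISRE, could not be tested, since the table holds a mean of 1.33 counts for it in either group. A readthrough gene of GENCODE v44, ENSG00000259529.1, covers most of the IRF9 locus and held 3116 to 3203 counts in CELF6-OE and 3793 to 3994 in Control (log2 fold change -0.23, SE 0.06). How reads of overlapping genes were assigned is not given in the sources used here, so the low count of IRF9 does not show that it was not expressed. The fall of these ligands and factors was measured in the same 6 libraries as that of the 4 genes, and its part in the lower IFITM and BST2 levels was not tested.

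**Figure D5:**
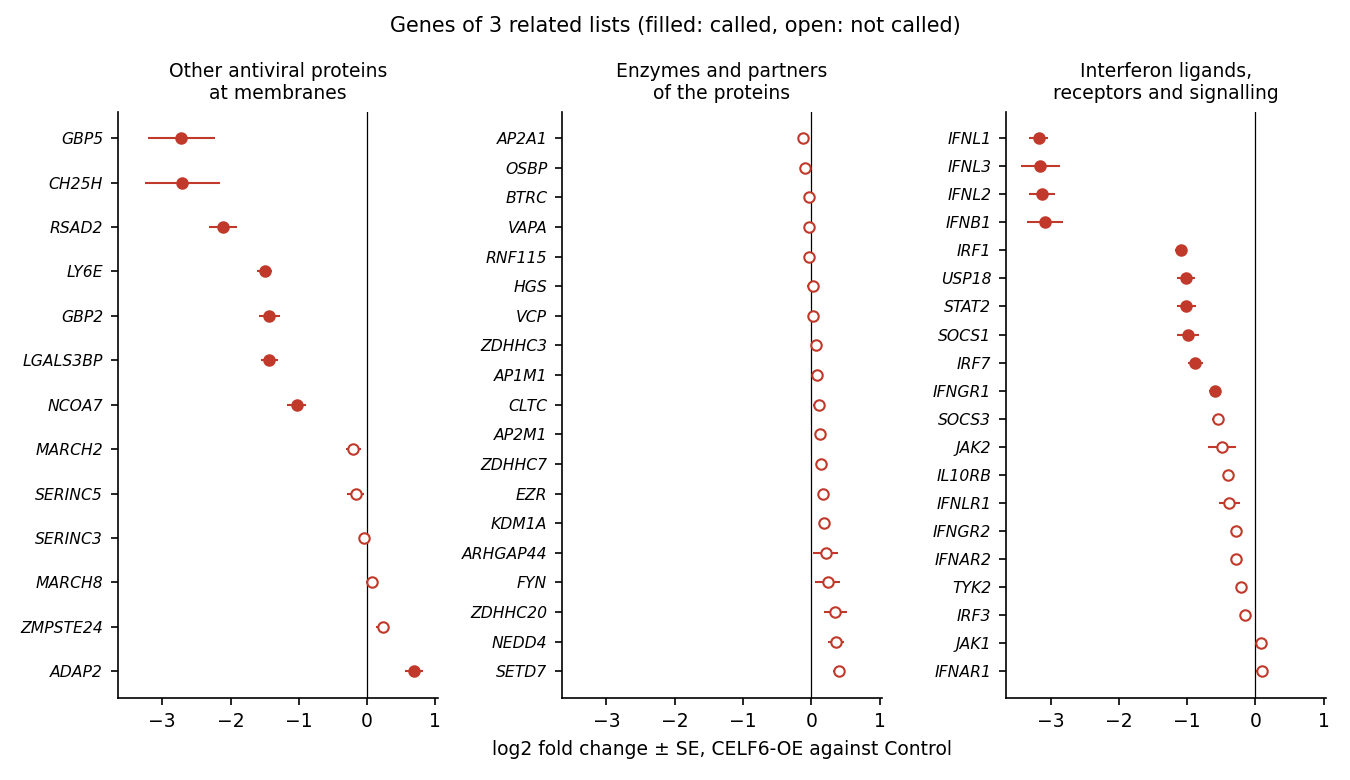
Log2 fold change ± SE of CELF6-OE against Control (x axis) for each tested gene (y axis) of 3 lists, filled where the gene was called and open where it was not. Of the membrane antiviral genes 7 of 13 were called lower, of the enzymes and partners 0 of 19, and of the interferon ligands, receptors and signalling genes 10 of 20. Over all genes tested 5.91% were called lower, and 0 of 19 is close to that share.

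The genes whose pattern over the 6 libraries was nearest to that of each gene were found by the Euclidean distance between profiles of log2(FPKM + 1), each centred on its own mean, among 11279 genes with a mean FPKM of at least 1. IFITM1 and BST2 were each other's nearest gene, at a distance of 0.18, followed for both by RARRES3 (0.36), a retinoid-induced phospholipase gene. Next came AC015688.3 for IFITM1 and IFNL3 for BST2, both at 0.50. RARRES3 had FPKM 9.13, 7.73 and 16.02 in CELF6-OE and 68.3, 72.6 and 68.2 in Control. Replicate 3 was the highest of its CELF6-OE group. Since RARRES3 was picked for a profile like theirs, this is not a separate observation.

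IFITM2 was not nearest to another IFITM gene. Its nearest genes were SLC15A3, a lysosomal peptide transporter, PDGFRL, and PSMB9, a subunit of the immunoproteasome, at 0.12, 0.13 and 0.16. SLC15A3 had FPKM of only 1.00, 0.80 and 1.83 in CELF6-OE, where adding 1 shrinks a drop, and its fitted log2 fold change was -2.29 beside -1.71 for IFITM2. IFITM3 was nearest to PLEKHA4, IFI27 and LGALS9 (galectin-9, which has close copies in the genome), at 0.12, 0.18 and 0.20, although the fitted log2 fold changes of PLEKHA4 and LGALS9, -2.65 and -2.64, were larger drops than its own -2.29. With 0.1 added to FPKM in place of 1, 1 of the 3 genes named stayed among the nearest 3 for each of IFITM2, IFITM3 and BST2. Between the 4 genes themselves the distance was 0.64 for IFITM3 with BST2, 0.69 for IFITM1 with IFITM3, 0.81 for IFITM2 with IFITM3, 1.42 for IFITM2 with BST2 and 1.45 for IFITM1 with IFITM2. These distances are a description over 6 libraries of 2 groups.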

How the data were processed

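Per the methods and labels, poly(A) RNA of 6 libraries was sequenced in pairs (10 µg of RNA and 151 bp in the methods, 1 µg and 150 in the labels). The authors trimmed reads with FASTX-Toolkit 0.0.13, aligned them to GRCh38 with TopHat2 and deposited raw counts of uniquely located reads per gene, and FPKM values computed from the same reads; which counter, strand setting and gene annotation they used is not given in the sources used here. Group and replicate came from the labels.

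From the counts, genes kept by filterByExpr (minimum count 10) were tested in edgeR 4.0.16 (R 4.3.3) with TMM scaling, the quasi-likelihood test, a prior count of 0.125 for log2 fold changes and Benjamini-Hochberg adjustment over 15847 genes. The biological coefficient of variation was 8.62% and the prior degrees of freedom 7.15. The SE of a log2 fold change was derived from the test, as its absolute value divided by the square root of the F statistic. FPKM served for levels, ratios, profiles and exact permutation tests. Floors of 3 counts cover counting error only. Alternatives were RLE, library size only or upper quartile scaling, no filter, DESeq2 1.42.0, limma-voom (limma 3.58.1), the likelihood ratio test, a prior count of 2, the replicate block, other call rules and pseudocounts, and leaving out each library. The procedure was tested on simulated counts. Named were CELF6, the 4 genes, their 3 nearest profiles, neighbours within 100 kb, paralogs and up to 8 genes a list (called genes by p, then by mean FPKM); a further few were named for their values. The 4 genes and the lists were chosen with earlier results of these data known. The methods call the replicates biological; p-values measure the spread between these libraries. Splicing data were not analysed here, and 1 marker gene is not reported here.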

Additional observations from a re-analysis of the deposited data

How the results depend on the processing

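All 4 genes were called lower in each of the 15 alternative fits and under both other call rules. With the replicate number as a block, 4 of 4 were again called lower, and 963 genes in all were called lower and 225 higher, beside 936 and 216; the numbers did not pair the libraries (correlations of deviations between same-numbered libraries -0.0722 to -0.0113, and 0 of 6 libraries closest to their own number). Leaving out each library in turn gave 791 to 1041 genes called lower and 155 to 348 called higher (348 without Control replicate 1), 0 to 1 paralogs called lower and 0 to 1 partners called higher. The difference in the log2 ratio of IFITM1 to BST2, 0.04, was -0.01 with 1 added to each FPKM and -0.02 to 0.10 leaving out each library, with -0.02 without CELF6-OE replicate 1; the cause was not tested. With 0.1 in place of 1 added to FPKM, 1 of the 3 nearest genes was shared with those named for each of IFITM2, IFITM3 and BST2. Scaling by library size only moved the median of all genes to 0.049 and gave 822 lower and 255 higher. No filter on low counts, over 29889 genes, gave 1212 and 324. Genes that were not called and lay near 0 changed sign in places. B4GALNT4, RNF115, BTRC and VAPA were at 0.01 with library size only, and SIGIRR was at -0.01 with no filter. Leaving out each library, the log2 fold change ranged from -0.14 to 0.06 for B4GALNT4, -0.09 to 0.10 for SIGIRR, -0.13 to 0.02 for MRPL34, -0.28 to 0.09 for PRRT1, -0.35 to 0.00 for TMEM91, -0.07 to 0.00 for RNF115, -0.01 to 0.06 for VCP, -0.06 to 0.01 for BTRC, -0.08 to 0.01 for VAPA and -0.06 to 0.11 for HGS. Calls of other named genes weakened in 17 cases (TMEM221, IFITM10 and IFNGR1) and were gained in 6 (SOCS3, ATHL1, ZDHHC20 and JAK2). With 3 libraries a group, permutation tests cannot go below 0.1.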
